A study of Mus musculus with 30 samples.

Results

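The 42 genes described here are cell cycle and proliferation genes, read in microglia of mice with and without *Bin1*. They were taken by name from the expression table, each symbol matched exactly 1 of its 47643 genes, and all 42 were among the 16897 genes whose mean over the libraries was at least 0.1 FPKM (fragments mapped to a gene, divided by its transcript length and by the fragments mapped in the library). The question was whether the level of genes that mark dividing cells differed with loss of *Bin1*. Microglia, the resident macrophages of the brain, were sorted by FACS as CD11b+ CD45med cells from 3 month-old mice in 30 libraries, 1 mouse number each. WT mice were *Bin1* wt/flox without Cre (5 males, 4 females), Het mice were *Bin1* wt/flox with Cx3Cr1-Cre (6 males, 5 females), and Homo mice were *Bin1* flox/flox with Cx3Cr1-Cre (5 males, 5 females). Every mouse therefore carried at least 1 floxed allele, and the Cre allele and loss of the first *Bin1* copy came together in every Cre-positive group and cannot be told apart. Cre was placed at the *Cx3cr1* locus, so it acts in the cells that express *Cx3cr1*, other macrophages included.

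A cell that divides passes from G1 into S phase, in which DNA is copied, and through G2 into mitosis. Entry into S phase is driven by cyclin E with its kinase and by the E2F transcription factors. Origins of replication are licensed by loading of the MCM helicase with the help of Cdc6 and Cdt1, and thymidylate synthase, thymidine kinase and ribonucleotide reductase supply the nucleotides. Cyclins A and B with Cdk1, the Aurora and Polo kinases, and the spindle and kinetochore proteins act in G2 and mitosis, and most of their transcripts are low in cells outside those phases. Adult microglia renew slowly, so that few cells of a healthy brain are in cycle at any moment.

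Promoters of this gene set differ by role, and 4 of them are shown: *Cdk1* for the CHR and CCAAT matches of the mitotic genes, and *Mcm6*, *Rrm1* and *Tyms* as genes of the pattern described last, picked after it was seen. RefSeq windows (build GRCm38.p6) from 250 bases before to 50 after the start were found for 34 of the 42 genes, and 32 had a single window, as had 22862 genes of the promoter table. Motifs were searched on both strands. The CHR element (TTTGAA or TTTAAA), known from promoters of genes active in G2 and mitosis, was in 14 of 16 windows of the mitotic genes, beside 28.4% of all single windows. It was in 5 of 13 windows of the replication, nucleotide and G1/S genes together. A CCAAT box (CCAAT) was also in 14 of 16, beside 38.2% of all. The E2F motif (TTTGGCGC, TTTCCCGC, TTTGCCGC or TTTCGCGC) was in 5 of 7 windows of the licensing and fork genes and in 1 of the 16 mitotic ones, that of *Cdk1*, beside 2.32% of all. The motif was in 0 of 4 nucleotide supply, 0 of 2 G1/S and 0 of 3 marker and chromatin windows. Its core (TTCGCGC or TTGGCGC or TTCCCGC, which overlaps the longer motif) was in 5 of 7 licensing and fork and 2 of 16 mitotic windows, beside 8.07% of all. For the core the other roles had 1 of 4, 0 of 2 and 1 of 3, in the same order. The 250 bases before the start are printed 5′ to 3′ on the gene's strand for *Cdk1* (chr10:69352913-69353162, minus strand), with CHR and CCAAT matches in capitals (ATTGG is CCAAT read on the other strand, and the E2F and core letters of *Cdk1* are left in lower case), and for *Mcm6* (chr1:128359706-128359955, minus strand), *Rrm1* (chr7:102441445-102441694, plus strand) and *Tyms* (chr5:30073626-30073875, minus strand), with E2F and core matches in capitals.
Cdk1: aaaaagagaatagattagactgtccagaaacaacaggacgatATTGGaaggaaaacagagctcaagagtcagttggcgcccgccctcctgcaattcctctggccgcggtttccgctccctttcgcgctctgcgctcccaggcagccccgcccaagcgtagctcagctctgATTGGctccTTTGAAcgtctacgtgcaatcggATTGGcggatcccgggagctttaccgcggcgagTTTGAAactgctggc
Mcm6: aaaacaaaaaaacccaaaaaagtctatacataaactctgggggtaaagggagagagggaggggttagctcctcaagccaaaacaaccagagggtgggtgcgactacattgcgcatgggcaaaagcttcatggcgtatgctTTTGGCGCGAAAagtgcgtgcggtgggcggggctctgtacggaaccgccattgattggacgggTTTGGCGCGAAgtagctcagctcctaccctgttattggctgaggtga
Rrm1: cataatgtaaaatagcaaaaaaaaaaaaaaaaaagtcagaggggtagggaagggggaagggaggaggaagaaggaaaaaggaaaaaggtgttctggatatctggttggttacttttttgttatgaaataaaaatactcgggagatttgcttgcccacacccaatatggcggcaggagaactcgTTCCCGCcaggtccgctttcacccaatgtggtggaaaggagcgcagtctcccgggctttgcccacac
Tyms: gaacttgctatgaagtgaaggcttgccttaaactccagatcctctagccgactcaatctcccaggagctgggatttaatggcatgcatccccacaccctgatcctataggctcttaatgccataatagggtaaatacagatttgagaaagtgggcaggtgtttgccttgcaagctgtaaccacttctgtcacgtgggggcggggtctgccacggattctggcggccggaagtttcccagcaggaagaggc
The *Cdk1* stretch held 2 CHR and 3 CCAAT matches, the last CHR beginning 15 bases before the start. *Mcm6* held E2F letters in 2 places, beginning 110 and 47 bases before the start. *Rrm1* held 1 match, to the core alone, and in *Tyms* none of these letters was present. A match is a description of the letters and not a measured site of binding.

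The libraries matched the labelled cell type and, with exceptions, the labelled genotype. The microglial markers *P2ry12* and *Tmem119* averaged 4475 and 2184 FPKM. *Bin1* lay between 230.3 and 289.5 FPKM in the 9 WT libraries and between 39.5 and 55.5 FPKM in the 10 Homo libraries, and 2 libraries labelled Het, Het-F-0206 and Het-M-0199, had Homo levels of 42.7 and 51.8 FPKM. *Cx3cr1* was 13.9 FPKM in Het-F-0206 and from 610.0 to 1243 FPKM in the other Cre-positive libraries, beside 1829 to 2344 FPKM in WT. Relative depth, read from the value of 1 fragment in low genes, ran from 0.669 to 1.41. Its median was higher in WT, 1.175 in males and 1.122 in females. The medians were 0.916 in Het males, 0.921 in Homo males, 1.004 in Het females and 0.946 in Homo females. Mouse numbers fell in an early range, up to that of WT-F-0122, and a late one from that of WT-M-0176, and the early range held 3 Homo males, 2 Het males and 1 WT female but no WT male. RNA of other cells varied too: the summed level of 11 neutrophil and precursor markers, led by *S100a8* and *S100a9*, was 43.9 to 349.3 FPKM in WT males, 0.214 to 189.6 in Het males, 0.0449 to 80.8 in Homo males, 6.80 to 158.6 in WT females, 0 to 88.3 in Het females and 0.219 to 72.1 in Homo females. Of these 11, *Prtn3* was listed at 0 in every library and *Elane* and *Mpo*, markers of early precursors of neutrophils, in 29 and 27 of 30, whereas the granule genes *Ngp*, *Camp* and *Ltf* reached 33.3, 39.4 and 7.22 FPKM and were listed at 0 in 6, 8 and 5. Of 7 T and NK cell markers, *Cd3e*, *Cd3g* and *Gzma* were at 0 in every library, *Klrb1c* was above 0 in all but 9, *Cd3d* in all but 16 and *Trac* and *Nkg7* in all but 26 each, and their sum stayed at or below 0.567 FPKM. The sums of 5 oligodendrocyte precursor and 7 neuroblast markers stayed at or below 1.73 and 1.95 FPKM. Other sums were larger and uneven. That of 5 choroid plexus and ependyma markers reached 264.4 FPKM in WT males and 121.2 in WT females. It reached 19.5 in Het males, 22.55 in Homo males, 1.48 in Het females and 2.4 in Homo females. The sum of 5 oligodendrocyte markers reached 141.3 FPKM in Het males beside 39.5 in WT males. That of 5 erythroid markers reached 197.1 FPKM in WT females. What part these other cells had in the values below was not tested.

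Most of the mitotic genes were read at low levels, while several replication genes were well expressed. The mean over 30 libraries was under 1 FPKM for 23 of the 42 genes and 10 FPKM or more for 5, and the median of 0.819 FPKM compares with 5.15 FPKM over all genes tested. *Mki67*, the proliferation antigen Ki-67 and the usual marker of cells in cycle (ENSMUSG00000031004, GRCm38 chromosome 7, 135689784 to 135716361, minus strand), averaged 0.183 FPKM, at percentile 9.6 of the genes tested. *Top2a*, the topoisomerase that untangles chromosomes, averaged 0.702 FPKM. Of the cyclins and kinases of mitosis, *Cdk1* stood at 3.15 FPKM and the other 6, which include *Ccnb1* at 0.524 FPKM and *Plk1* at 0.456 FPKM, were under 1 FPKM. The kinetochore and checkpoint genes ranged from 0.137 FPKM for *Cenpe*, a kinetochore motor, to 2.69 FPKM for *Cenpa*, the histone of the centromere. The spindle and cytokinesis genes ranged from 0.165 FPKM for the motor *Kif23* to 1.01 FPKM for *Prc1*, which bundles microtubules of the midzone. By contrast, *Pcna*, the sliding clamp of the polymerases, averaged 28.2 FPKM, *Mcm3* 23.2 FPKM and *Mcm7* 11.9 FPKM. *Cdc6*, which loads the helicase, was at 0.166 FPKM. Thymidylate synthase (*Tyms*, 8.41 FPKM) and the large subunit of ribonucleotide reductase (*Rrm1*, 7.65 FPKM) were far above *Rrm2* (0.590 FPKM), the small subunit. Among the G1/S genes, *Ccne2* stood at 1.44 FPKM and *Ccne1* at 0.295 FPKM. *Stmn1*, which destabilizes microtubules, and *Hmgb2*, a chromatin protein, averaged 20.3 and 12.1 FPKM. *Plk1*, *Ube2c*, *Kif20a*, *Kif23* and *Cdc6* were listed at 0 in 1 or 2 libraries each.

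**Figure D1:**
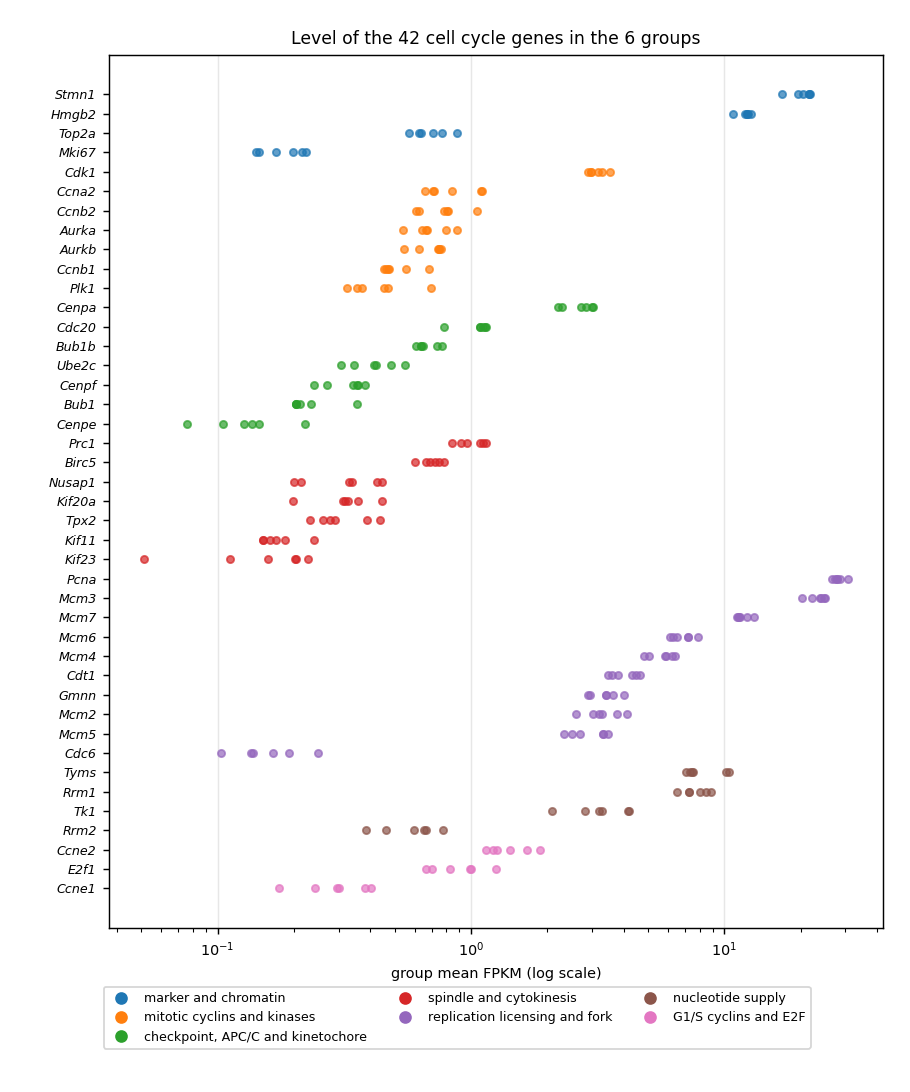
Mean FPKM of each of the 42 genes in the 6 groups (1 point a group, log axis), ordered by role and level. The mitotic genes lie mostly below 1 FPKM, and *Pcna*, *Mcm3*, *Stmn1*, *Hmgb2* and *Mcm7* lie above 10 FPKM.

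The value of 1 fragment could be read for 4 of the genes, which shows how few fragments lay behind the low ones. *Mki67* rested on 5 to 52 fragments a library with a median of 17, *Ccnb2* on 2 to 30 with a median of 12, *Aurka* on 3 to 29 with a median of 11, and *Kif23* on 0 to 17 with a median of 5. Counting error alone was then 24.3% for *Mki67* and 44.7% for *Kif23* at the median. The variance between libraries of a group was 4.19 times that of counting for *Mki67* and 2.20 to 2.63 times for the others. This covers the counting of fragments only, and fragments of an amplified library are not molecules. On the log2 scale, libraries of a group spread with a median SD of 0.575 for the 23 genes of 0.1 to 1 FPKM, beside 0.800 for all genes of that level. For the 14 genes of 1 to 10 FPKM the median SD was 0.373 beside 0.332, and for the 5 genes of 10 to 100 FPKM 0.194 beside 0.208. A lower level of such a transcript may reflect fewer cells in cycle or less RNA in each, and bulk libraries cannot tell these apart.

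*Mki67* overlapped between WT and the Cre-positive groups in both sexes. In WT males it read 0.128, 0.131, 0.184, 0.248 and 0.384 FPKM and in Homo males 0.0560, 0.0652, 0.129, 0.177 and 0.299 FPKM. Het males lay between 0.0776 and 0.217 FPKM with a median of 0.201. The Homo male values spanned most of the WT range and passed below it in 2 libraries. Among females, WT read 0.0822, 0.0859, 0.161 and 0.235 FPKM, Het 0.113, 0.135, 0.194, 0.323 and 0.349 FPKM, and Homo 0.129, 0.149, 0.158, 0.254 and 0.304 FPKM. The female groups overlapped as well, with both Cre-positive groups reaching above WT. The log2 fold change of Homo against WT, fitted with limma on log2(FPKM + 0.1), which understates changes of low genes, was -0.44 (SE 0.34, adjusted p = 0.449) in males and 0.32 (SE 0.36, adjusted p = 1) in females. Averaged over the sexes it was -0.06, with a 95% interval from -0.56 to 0.45, which spans folds of FPKM + 0.1 from 0.678 to 1.36.

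Across the set, no gene passed the test in any of the comparisons between genotypes. A gene was called at an adjusted p below 0.05 and a fold above 1.5. In male Homo against WT, 0 of 42 were called by limma, beside 1.81% of all genes. At an unadjusted p below 0.05 there were 2, *Mcm3* and *Stmn1*, beside 22.5% of all genes. The 42 log2 fold changes ran from -0.65 to 0.51, 20 above and 22 below zero, with a median of -0.05 beside 0.03 over all genes. In female Homo against WT, 0 were called beside 0.071% of all, and 1, *Tk1*, had an unadjusted p below 0.05 beside 3.49%. Their median was 0.03 beside 0.00 over all genes. In male Het against WT, 0 were called beside 0.154%, and 1, *Nusap1*, had an unadjusted p below 0.05 beside 14.2%, with a median of 0.02 beside 0.01. In female Het against WT, 0 were called beside 0.13%, and 1, *Tk1*, had an unadjusted p below 0.05 beside 3.95%, with a median of 0.09 beside 0.00. These comparisons share their WT libraries within each sex. The share of the 42 genes at an unadjusted p below 0.05, 4.76% in male Homo and 2.38% in each of the others, was below that of all genes in all 4. In both female comparisons this was 1 gene, near the share of all genes, and so not a result about these genes. Of the 42 genes, 23 averaged under 1 FPKM, a level at which libraries of a group spread more.

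Loss of the second *Bin1* copy, Homo against Het, also gave no call. The Het groups here include Het-F-0206 and Het-M-0199, whose *Bin1* of 42.7 and 51.8 FPKM was at Homo level. None of the 42 genes passed without these libraries either. In males 0 genes were called beside 0% of all genes, and 1 (*Stmn1*) had an unadjusted p below 0.05 beside 3.85%. In females 0 were called beside 0.0118% and 0 had an unadjusted p below 0.05 beside 2.06%. With the sexes averaged, 0 of 42 were called in Homo against WT beside 0.515%, with 3 at an unadjusted p below 0.05 beside 14.1%. In Het against WT 0 were called beside 0.527%, with 2 at an unadjusted p below 0.05 beside 9.65%. The difference between the sexes in the Homo effect called 0 beside 0% and gave 0 at an unadjusted p below 0.05 beside 9.29%. For the Het effect these were 0 beside 0% and 0 beside 4.53%. In the Homo effect 31 of the 42 genes had the lower value in males, with a median difference of -0.16 (male minus female) beside 0.02 over all genes. This direction was lost with late mouse numbers alone, where 22 genes were higher and 20 lower in males (median 0.005), and also when the fit held the number range, where 20 were higher and 22 lower (median -0.017).

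The exact permutation test on FPKM, two-sided, passed no gene of the whole table after adjustment in any of the 6 comparisons between groups of a sex. With 4 to 6 libraries a group this was nearly set by the design, since an adjusted p below 0.05 needs between 1463 and 5365 genes at the smallest p, which is 0.00433 to 0.0159. In male Homo against WT 5 of the 42 (*Ccna2*, *Ccne1*, *Gmnn*, *Mcm3* and *Top2a*) had an exact p below 0.05 beside 15.8% of all genes. The counts were 1 beside 5.78% in female Homo, 3 beside 6.96% in male Het and 0 beside 5.36% in female Het. For Homo against Het they were 0 beside 2.65% in males and 0 beside 3.36% in females.

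**Figure D2:**
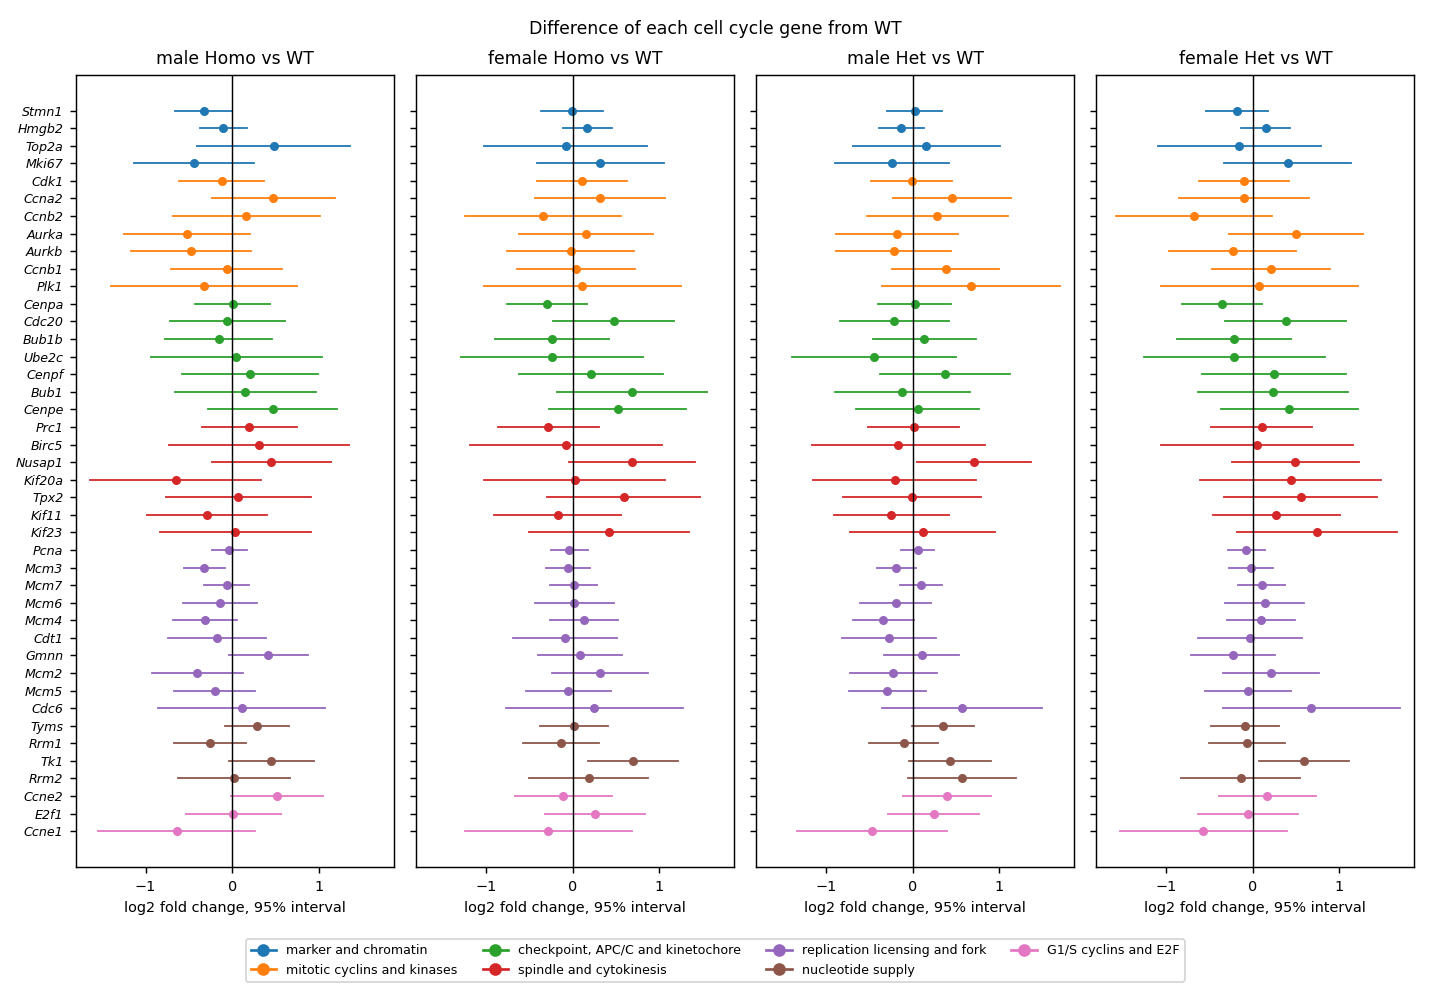
Log2 fold change from WT (points) with 95% intervals from limma (lines) for the 42 genes, colored by role, in 4 comparisons. Intervals of nearly all genes cross zero, and they are widest for the low mitotic genes and narrowest for *Pcna*, *Mcm3* and *Mcm7*.

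How large a change the data would have left unseen depended on the level of the gene. For Homo against WT averaged over the sexes, the 95% interval of 37 of the 42 genes lay within a factor of 2 either way. Within males it did so for 27 genes, and within females for 24. These are intervals of log2(FPKM + 0.1), which understates changes of low genes, and 23 of the 42 averaged under 1 FPKM. For those genes the count does not bound the change in FPKM itself. *Pcna* read 24.04, 24.65, 28.47, 30.1 and 31.8 FPKM in WT males and 26.2, 28.1, 29.1, 29.5 and 30.1 FPKM in Homo males, and the Homo values lay wholly inside the WT range. Its averaged Homo effect was -0.04 (95% interval -0.18 to 0.11). *Cdk1*, the kinase that triggers mitosis, read 2.47, 2.52, 2.75, 3.52 and 3.67 FPKM in WT males and 2.44, 2.51, 2.74, 3.27 and 3.49 FPKM in Homo males. Both sets covered the same span, and the averaged Homo effect was 0.00 (95% interval -0.36 to 0.35). The largest estimate of *Top2a* was in Homo males, 0.47 (SE 0.43, adjusted p = 0.535). For *Ccnb1* the averaged interval ran from -0.48 to 0.45, for *Top2a* from -0.45 to 0.84, and for the helicase subunit *Mcm2* from -0.43 to 0.33.

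Summed over the 21 mitotic genes, the level was 15.2 ± 1.67 FPKM (SD, n = 5) in WT males, 16.8 ± 2.72 (n = 6) in Het males and 15.8 ± 2.65 (n = 5) in Homo males. In females it was 15.2 ± 1.98 (n = 4), 15.1 ± 1.72 (n = 5) and 15.8 ± 3.09 (n = 5). The group means, from 15.1 to 16.8 FPKM, thus differed by about the SD within a group, and the 30 libraries ran from 11.7 to 20.4 FPKM. Of the mean of 15.7 FPKM, *Cdk1* made up 3.15, *Cenpa* 2.69, *Cdc20* 1.07 and *Prc1* 1.01. The others averaged under 1 FPKM each, so the sum weighs these 4 most.

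**Figure D3:**
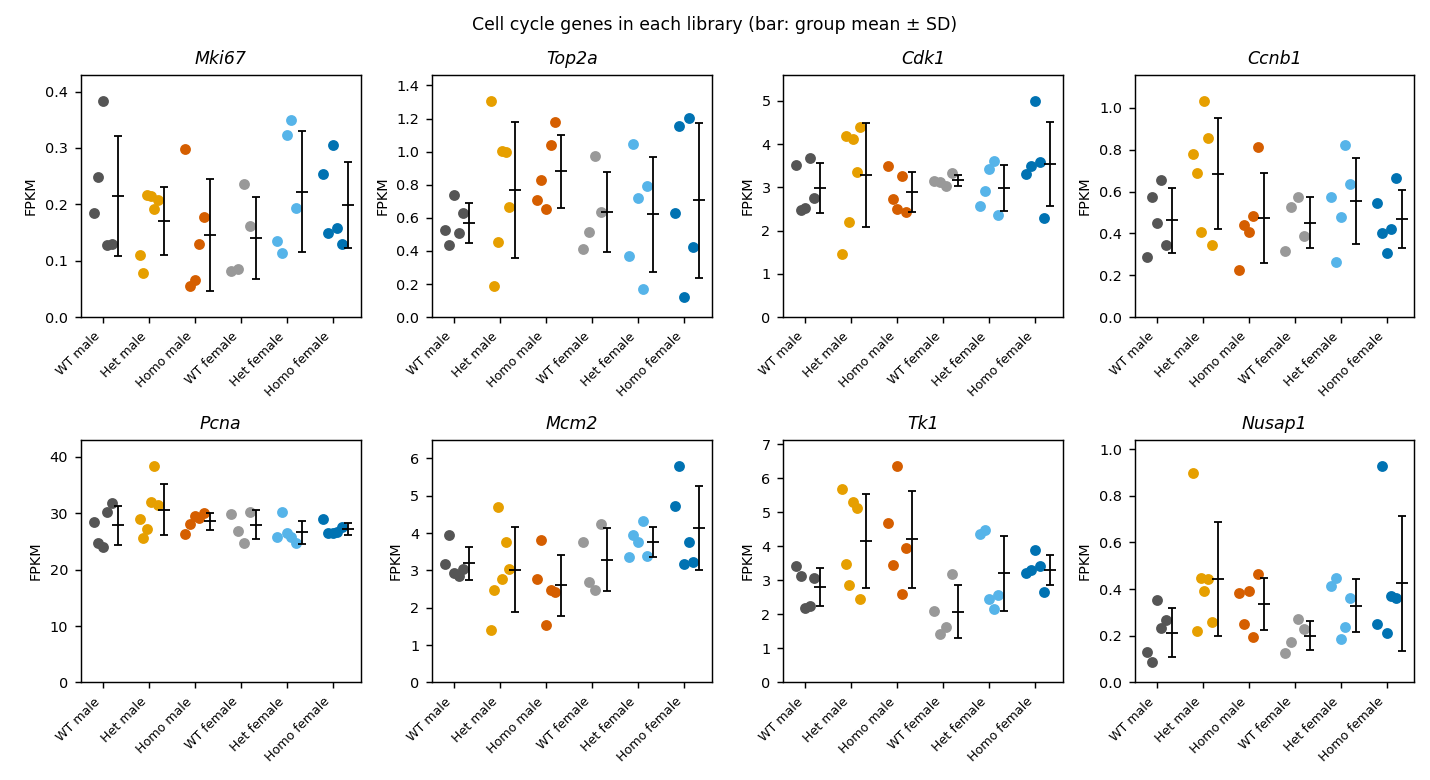
FPKM of 8 genes in each library (points) by group, with the group mean and SD (bar). Groups overlap for *Mki67*, *Top2a*, *Cdk1*, *Ccnb1*, *Pcna* and *Mcm2*, while *Tk1* and *Nusap1* have their lowest group means in WT of each sex.

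By role, the median estimate had the same sign in all 4 comparisons with WT for 1 of the 7 roles, the checkpoint and kinetochore genes (0.02 to 0.23), and no gene of that role passed the test. Of the 7 mitotic cyclins and kinases, 5 had a lower and 2 a higher estimate in Homo males, and 5 a higher and 2 a lower one in Homo females. *Ccna2*, cyclin A, which acts in S phase and G2, read 0.602, 0.635, 0.702, 0.736 and 0.857 FPKM in WT males and 0.888, 0.937, 0.962, 1.10 and 1.60 FPKM in Homo males. These were the only groups of the 4 comparisons with WT that did not overlap for any of the 42 genes, beside 3.94% of all genes without overlap in male Homo, 2.31% in female Homo, 0.84% in male Het and 2.21% in female Het. *Ccna2* gave an exact permutation p of 0.00794, the smallest that 5 against 5 libraries allow, and an adjusted p of 0.202. limma on the log scale gave 0.47 (SE 0.35, adjusted p = 0.424), and in females *Ccna2* ranged from 0.311 to 1.38 FPKM in WT and from 0.448 to 1.36 FPKM in Homo. *Ccna2* was singled out after its values were seen. *Ccnb2*, a cyclin of mitosis, had the lowest female values in both Cre-positive comparisons, at -0.34 (SE 0.44) in Homo and -0.68 (SE 0.44) in Het. *Plk1*, the Polo kinase, had 0.67 (SE 0.50, adjusted p = 0.531) in Het males and -0.33 (SE 0.52) in Homo males.

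All 7 spindle and cytokinesis genes had higher estimates in Het females, with a median of 0.44, and none passed the test. *Kif23*, a motor of cytokinesis, was the highest at 0.74 (SE 0.45, adjusted p = 1), from a WT mean of 0.0514 FPKM that includes a library at 0. *Kif20a*, a motor of the same stage, had the lowest estimate in Homo males, -0.65 (SE 0.48, adjusted p = 0.427). *Nusap1*, which binds microtubules around chromosomes, had a positive estimate in all 4 comparisons with WT. It read 0.0886, 0.129, 0.232, 0.266 and 0.352 FPKM in WT males and 0.194, 0.2498, 0.384, 0.393 and 0.467 FPKM in Homo males. Het males lay between 0.222 and 0.899 FPKM with a median of 0.417, and WT females between 0.128 and 0.272 FPKM. The groups overlapped in every case. Averaged over the sexes the estimate was 0.57 (SE 0.25, adjusted p = 0.292) in Homo and 0.60 (SE 0.24, adjusted p = 0.389) in Het. With late mouse numbers alone these were 0.50 (SE 0.30, adjusted p = 0.671) and 0.51 (SE 0.26, adjusted p = 0.590). Of the kinetochore and checkpoint genes, *Cenpa* had -0.29 (SE 0.23) in Homo females, and *Ube2c*, the ubiquitin-conjugating enzyme of the anaphase-promoting complex, -0.44 (SE 0.46) in Het males.

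*Tk1*, thymidine kinase of the salvage pathway (ENSMUSG00000025574, GRCm38 chromosome 11, 117815526 to 117826092), had the smallest unadjusted p of the 42 genes in the Homo and Het comparisons averaged over the sexes. It read 2.19, 2.24, 3.06, 3.13 and 3.43 FPKM in WT males and 2.61, 3.46, 3.94, 4.68 and 6.37 FPKM in Homo males. Het males lay between 2.46 and 5.70 FPKM with a median of 4.31. Among females, WT read 1.42, 1.63, 2.10 and 3.17 FPKM, Homo 2.64, 3.22, 3.32, 3.43 and 3.89 FPKM, and Het 2.16, 2.47, 2.57, 4.35 and 4.47 FPKM. Each Cre-positive group overlapped WT through its lower libraries, and WT-F-0207 lay among the Homo values. The log2 fold change averaged over the sexes was 0.57 (SE 0.18, fold 1.48, unadjusted p = 0.00284, adjusted p = 0.126) in Homo and 0.51 (SE 0.17, fold 1.43, unadjusted p = 0.00566, adjusted p = 0.239) in Het. Homo against Het gave 0.02 (SE 0.23) in males and 0.10 (SE 0.24) in females. With late mouse numbers alone the averaged values were 0.46 (SE 0.21, adjusted p = 0.541) and 0.50 (SE 0.19, adjusted p = 0.365). Without Het-F-0206 and Het-M-0199, whose *Bin1* was at Homo level, the Het value was 0.40 (SE 0.17, adjusted p = 0.474). The Homo value was then 0.57 (SE 0.17, adjusted p = 0.112). *Tyms*, the enzyme that makes thymidylate, had 0.28 (SE 0.18) in Homo males and 0.02 (SE 0.19) in Homo females.

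Licensing and fork genes had lower estimates in 8 of 10 cases in Homo males, with a median of -0.16, and in 4 of 10 in Homo females, with a median of 0.02. *Mcm3*, a subunit of the helicase, had the smallest adjusted p of the set in male Homo against WT. It read 21.3, 23.3, 24.5, 24.9 and 25.7 FPKM in WT males and 17.0, 18.9, 20.5, 21.6 and 23.5 FPKM in Homo males, which overlapped in 2 Homo libraries. Its log2 fold change was -0.33 (SE 0.12, adjusted p = 0.101) with all libraries and -0.18 (SE 0.12, adjusted p = 0.793) with late mouse numbers alone. The summed level of *Mcm2* to *Mcm7* was 53.5 ± 3.60 FPKM (SD, n = 5) in WT males and 48.2 ± 4.62 (n = 5) in Homo males, and 55.95 ± 5.18 (n = 4) and 56.5 ± 1.23 (n = 5) in WT and Homo females. *Cdc6* had 0.68 (SE 0.50) in Het females. *Stmn1* had -0.33 (SE 0.16, adjusted p = 0.222) in Homo males, from 20.4 ± 5.25 to 16.9 ± 3.04 FPKM (SD, n = 5 each), and -0.01 (SE 0.17) in Homo females.

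The cyclins E of the G1/S genes had estimates of opposite sign in males. *Ccne2* had 0.51 (SE 0.26, adjusted p = 0.240) in Homo males, its comparison's highest, and -0.11 (SE 0.28) in Homo females. *Ccne1*, the other cyclin E, had negative estimates in all 4 comparisons with WT, from -0.64 (SE 0.44) in Homo males to -0.28 (SE 0.47) in Homo females. None of these passed the test.

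Of the wider pathway, 142 further genes in 7 lists (D cyclins and G1 kinases, CDK inhibitors, pocket proteins with E2F and DREAM, replication, mitosis, the p53 pathway, and growth factor signals of microglia) were read beside the set, and 135 of them were tested. In Homo males 1 was called higher and 0 lower, with 24 at an unadjusted p below 0.05, and none was called in Homo females, Het males or Het females, where the counts at an unadjusted p below 0.05 were 8, 15 and 9. The share called in Homo males was 0.741% beside 1.81% of all genes. At an unadjusted p below 0.05 the shares were 17.8% beside 22.5% in Homo males, 5.93% beside 3.49% in Homo females, 11.1% beside 14.2% in Het males and 6.67% beside 3.95% in Het females. The gene called was *Phlda3*, a p53 target that restrains Akt. The 14 genes of the p53 list had a median of -0.075 in Homo males, -0.007 in Homo females, -0.073 in Het males and 0.048 in Het females. An unadjusted p below 0.05, in either direction, was reached by 8, 1, 4 and 2 of them in this order. The shares of all genes were 22.5%, 3.49%, 14.2% and 3.95%. *Sesn1* and *Trp53* of this list, named after their values were seen, had -0.44 (SE 0.13, adjusted p = 0.061) and -0.38 (SE 0.14, adjusted p = 0.106) in Homo males. *Phlda3* read 0, 0.0519, 0.137, 0.143 and 0.478 FPKM in WT males and 0.385, 0.472, 0.754, 0.840 and 0.951 FPKM in Homo males, with the highest WT library reaching into the Homo range. The log2 fold change was 1.71 (SE 0.47, adjusted p = 0.0451). Averaged over the sexes it was 1.48 (SE 0.34, adjusted p = 0.0309) in Homo and 1.41 (SE 0.34, adjusted p = 0.0409) in Het. The *Phlda3* call in Homo males was lost with late mouse numbers alone (2.11, SE 0.64, adjusted p = 0.326) and when the fit held the number range (1.80, SE 0.54, adjusted p = 0.213). The averages lost it with late numbers alone (adjusted p = 0.119 in Homo and 0.146 in Het) and kept it with the range in the fit (adjusted p = 0.0353 and 0.0364). *Cdkn1a*, the CDK inhibitor p21 and another p53 target, rose in Het with the sexes averaged, by 0.67 (SE 0.16, adjusted p = 0.0320). The Homo estimate was close, 0.575 (SE 0.16, adjusted p = 0.0817), with 0.305 (SE 0.22) in males and 0.845 (SE 0.23) in females. The *Cdkn1a* means were 6.49 ± 1.81 FPKM (SD, n = 5) in WT males, 9.19 ± 2.60 (n = 6) in Het males, 6.13 ± 0.738 (n = 4) in WT females and 12.3 ± 4.40 (n = 5) in Het females. The 2 Het libraries with *Bin1* at Homo level had the highest *Cdkn1a* of their groups, 14.0 FPKM in Het-M-0199 and 18.5 FPKM in Het-F-0206. Without them the Het estimate was 0.52 (SE 0.14, adjusted p = 0.130), and the Homo estimate was 0.575 (SE 0.14, adjusted p = 0.0416), at a fold under 1.5. For Homo, 0 of 19 fits that each left out 1 library had an adjusted p below 0.05. The calls of both genes depended on single libraries. *Phlda3* in Homo males kept an adjusted p below 0.05 in 1 of 10 fits that each left out 1 library, that without WT-M-0202, and averaged over the sexes in 11 of 19 for Homo and 7 of 20 for Het. *Cdkn1a* in Het kept it in 9 of 20 and lost it without Het-F-0206 or Het-F-0220, Het-M-0108, Het-M-0199 or Het-M-0210, WT-F-0192, WT-F-0200 or WT-F-0207, or WT-M-0177, WT-M-0178 or WT-M-0202. The average of *Phlda3* in Homo lost it without Homo-F-0193 or Homo-F-0201, Homo-M-0093 or Homo-M-0190, WT-F-0200 or WT-F-0207, or WT-M-0177 or WT-M-0178, and that in Het without Het-F-0206, Het-F-0208 or Het-F-0220, Het-M-0108, Het-M-0199 or Het-M-0210, WT-F-0122, WT-F-0200 or WT-F-0207, or WT-M-0176, WT-M-0177, WT-M-0178 or WT-M-0258.

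In Homo males 4 more pathway genes had an adjusted p below 0.05 at folds under 1.5, which with *Phlda3* makes 5 of 135, or 3.70%, beside 2.82% of all genes. *Ccnd3*, the D cyclin with the highest mean here at 25.4 FPKM, fell by 0.48 on the log2 scale (SE 0.12, adjusted p = 0.0324), *Slbp*, the histone mRNA binding protein, by 0.34 (SE 0.09) and *Lin37* of the DREAM complex by 0.42 (SE 0.12). *Orc3* of the origin recognition complex rose by 0.56 (SE 0.15). None of the 4 kept an adjusted p below 0.05 with late mouse numbers alone, where *Ccnd3* had -0.57 (SE 0.15, adjusted p = 0.229) and *Orc3* 0.40 (SE 0.16, adjusted p = 0.528), or with the number range as a covariate. Leaving out Homo-M-0093, Homo-M-0097 or Homo-M-0109, or WT-M-0176 or WT-M-0177, also lost all 4. *Ccnd1* had 0.02 (SE 0.24) and 0.39 (SE 0.25) in Homo males and females, *Ccnd2* -0.06 (SE 0.66) and 0.01 (SE 0.70), and *Cdkn1b*, the inhibitor p27, 0.22 (SE 0.17) and 0.32 (SE 0.18). *Rb1*, the retinoblastoma protein, had 0.20 (SE 0.18) and -0.21 (SE 0.19). *Foxm1*, a transcription factor of mitotic genes, averaged 0.995 FPKM, with 0.22 (SE 0.38) and 0.01 (SE 0.41). *Myc* had 0.62 (SE 0.20, adjusted p = 0.0707) and 0.02 (SE 0.21), and *Csf1r*, the receptor on which microglia depend, -0.51 (SE 0.22, adjusted p = 0.156) and -0.08 (SE 0.23).

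Members of the set passed the test in a comparison of mouse numbers, at a rate close to that of all genes. Among the 11 male Cre-positive libraries, 5 of the early range were compared with 6 of the late range, with genotype in the fit. Here 4 of the 42 genes were called, all lower in the early range, beside 7.98% of the 17326 genes tested. An unadjusted p below 0.05 was reached by 9, or 21.4%, beside 33.1% of all. The first share is near that of all genes and the second below it, so neither is a result about these genes. The median of the 42 was -0.30 beside 0.10 over all genes, and without scaling of the libraries the median of all genes moved by 0.14 to 0.23, that of the 42 standing at -0.14, while quantile normalization put it at -0.04 and that of the 42 at -0.57. *Rrm1* read 4.71, 5.06, 5.13, 5.46 and 6.01 FPKM in the early libraries and between 6.69 and 9.68 FPKM in the late ones with a median of 8.08, without overlap. It fell by 0.79 on the log2 scale (SE 0.16, adjusted p = 0.0159). *Cdt1*, which brings the helicase to the origin, fell by 0.95 (SE 0.24, adjusted p = 0.0251), from 4.27 ± 0.931 (SD, n = 6) to 2.63 ± 0.928 FPKM (n = 5). *Mcm6* fell by 0.68 (SE 0.20, adjusted p = 0.0366) and *Mcm5* by 0.74 (SE 0.22, adjusted p = 0.0371). At folds under 1.5, which bring the members with an adjusted p below 0.05 to 6 beside 15.9% of all genes, *Pcna* fell by 0.32 (SE 0.09, adjusted p = 0.0313) and *Tyms* rose by 0.55 (SE 0.15, adjusted p = 0.0324). *Tyms* read 9.02, 10.7, 13.6, 14.4 and 16.2 FPKM in the early libraries and between 6.28 and 11.4 FPKM in the late ones. No mitotic gene passed, and *Mki67* had -0.54 (SE 0.40, adjusted p = 0.361). *Rrm1*, *Cdt1*, *Mcm5* and *Mcm6* were named after their values were seen.

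Other measures differed between the number ranges in these male Cre-positive libraries, with overlap. Relative depth was 0.669 to 0.921 in their early libraries and 0.727 to 1.41 in their late ones. The mean log2 level of 1754 long noncoding RNAs minus that of 12592 protein-coding genes ran from -2.80 to -2.48 in the early libraries and from -3.40 to -2.69 in the late ones. The late library Het-M-0203 had a depth of 0.727 and a difference of -2.69, near the early ones. WT-F-0122, the early library outside this subset, had 1.34 and -3.08, outside both early ranges. The part of depth and RNA make-up in the lower replication genes was not tested. What the range stands for (a cohort, a day or a sequencing run) is not given in the sources used here. The 4 calls dropped to 0 without Het-M-0100 or without Homo-M-0189, each of which left 1 gene called in the whole table beside 1383 with all libraries, and to 2 without any of Het-M-0197, Het-M-0199 or Het-M-0210 or Homo-M-0093, Homo-M-0109 or Homo-M-0190.

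**Figure D4:**
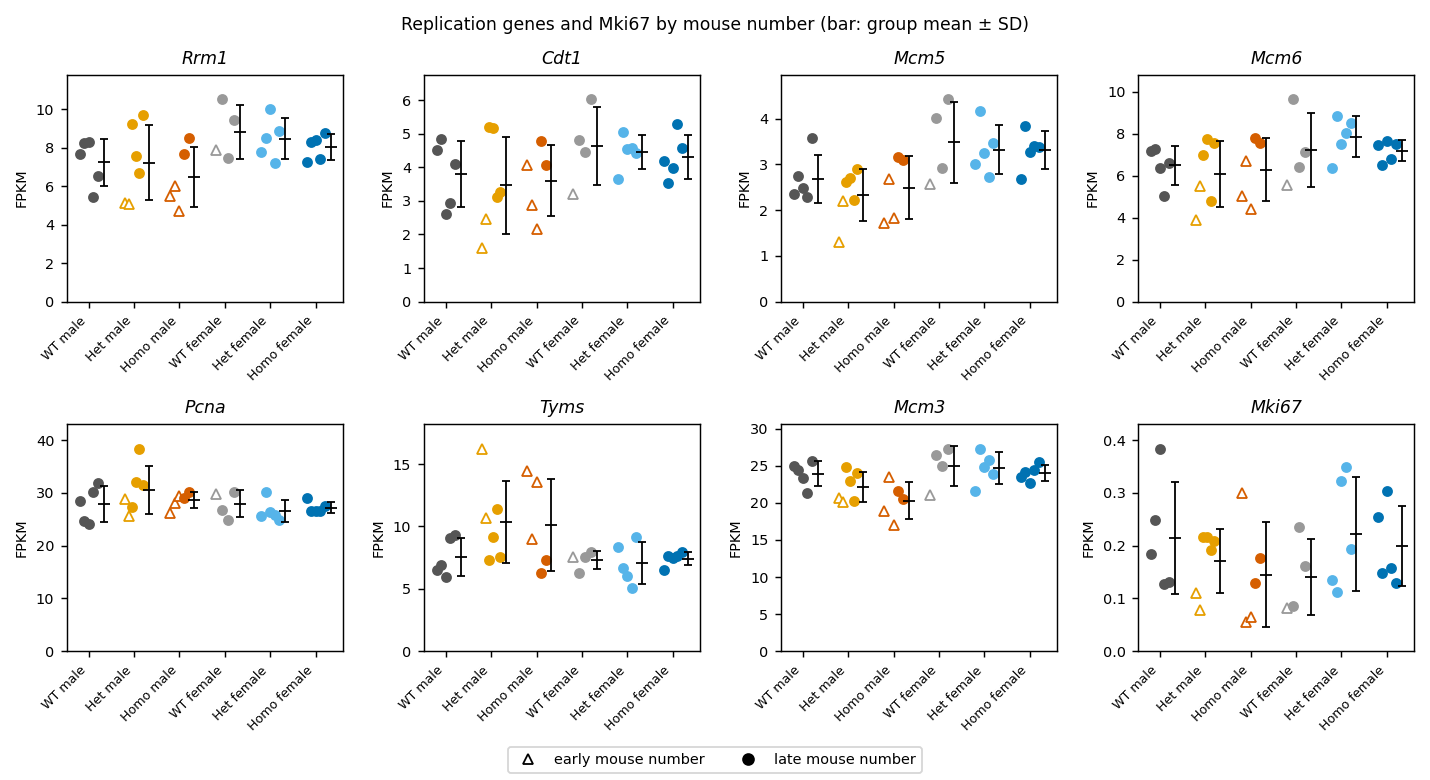
FPKM of 8 genes in each library by group, with early mouse numbers as open triangles, late ones as filled circles, and the group mean and SD as bars. *Rrm1*, *Cdt1*, *Mcm5* and *Mcm6* are mostly low and *Tyms* is mostly high in early libraries of Het and Homo males, and WT males have no early library.

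The early range held 3 of 5 Homo males and no WT male, and the male Homo values of these genes differed with and without it (2 Homo males remain, and the fit assumes that they vary like the other groups). For *Rrm1* the log2 fold change of Homo against WT in males was -0.25 (SE 0.20) with all libraries and 0.18 (SE 0.19) with late numbers alone. *Cdt1* went from -0.18 (SE 0.28) to 0.25 (SE 0.25) and *Mcm6* from -0.15 (SE 0.21) to 0.25 (SE 0.21). None was called either way. The median of the 42 in male Homo against WT went from -0.05 to 0.09.

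Some of the replication genes varied together from library to library and others ran against them. After each group's mean was removed, Pearson's r of log2 values over the 30 libraries had a median of 0.68 (range 0.35 to 0.88) over the 21 pairs of *Mcm2* to *Mcm6*, *Cdt1* and *Rrm1*, a set chosen for this pattern. Over all 45 pairs of the 10 licensing and fork genes the median was 0.36 (range -0.62 to 0.88), and over the 6 pairs of the nucleotide supply genes -0.36 (range -0.70 to 0.52). The highest was *Mcm3* with *Mcm6* at 0.88. *Tyms* was opposite to all 7 (median -0.55, range -0.74 to -0.50), as was *Mcm7*, a subunit of the same helicase (median -0.45, range -0.62 to -0.37). *Tk1* and *Gmnn* had medians of -0.20 and -0.16 with the 7. Over all 210 pairs of the 21 mitotic genes the median was 0.06, from -0.55 to 0.63. *Mki67* with *Top2a* gave -0.03 and *Mki67* with *Cdk1* 0.31. These values describe libraries that share mouse number range, depth and RNA make-up, whose part was not tested. Of the promoters printed above, those of *Mcm6* and *Rrm1* belong to the first set and that of *Tyms* to a gene opposite to it. In the first set *Mcm3*, *Mcm5* and *Cdt1* also held E2F matches, *Mcm2* held neither the motif nor its core, and *Mcm4* had no window. *Mcm7* had 2 windows and was not scored. Whether the motifs bear on the correlations was not tested.

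**Figure D5:**
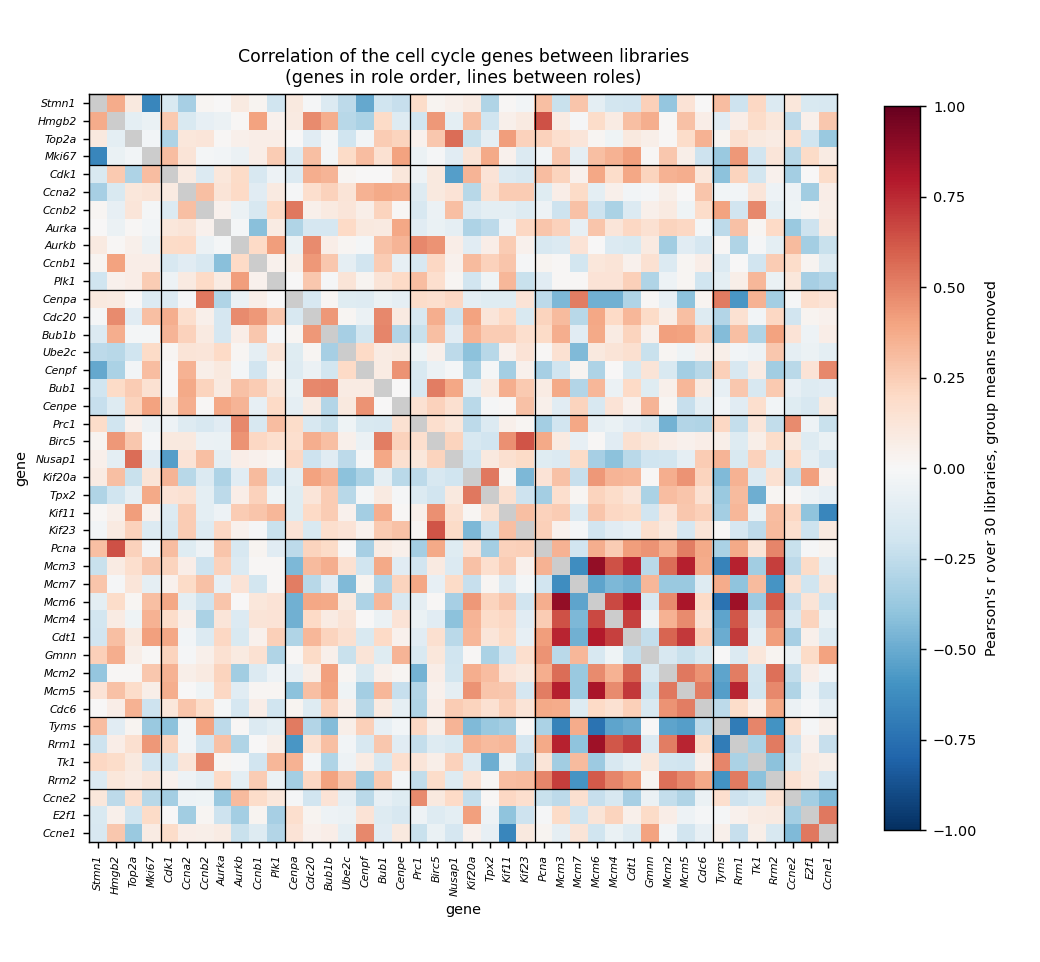
Pearson's r between the 42 genes over 30 libraries after removal of group means (color, from -1 in blue to 1 in red), genes in role order with lines between roles. The block of *Mcm2* to *Mcm6*, *Cdt1* and *Rrm1* is red, *Tyms* and *Mcm7* are blue against it, and the mitotic genes are pale.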

How the data were processed

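RNA-seq was read in 30 libraries of sorted microglia. The authors deposited FPKM per gene, which they made by alignment to mm10 and quantification with RSEM, after leaving out samples that failed their quality control. In the table, 6 columns of the table that matched no label were not used here. The labels also describe cultured microglia and another library kit, and the sorting and low-input library of the methods were followed. Each library carries its own mouse number, and p-values measure the spread between these libraries. The members, lists and tests were chosen with earlier results of these data known.

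FPKM values were scaled by the median of ratios and log2(FPKM + 0.1) was fitted with limma 3.58.1 (trend, R 4.3.3) over the 6 groups for genes with a mean of at least 0.1 FPKM, with Benjamini-Hochberg adjustment over all genes tested. A two-sided exact permutation test on FPKM (Python 3.11.15) was run for every gene. Values by library, means and sums are FPKM as deposited. Depth is relative, since the table holds no counts. Named genes were the usual markers, the highest member of each role, members called, and the 2 highest and 2 lowest fold changes in each comparison with WT; *Mcm3*, *Ccna2*, *Rrm1*, *Rrm2*, *Cdt1*, *Mcm5*, *Mcm6* and the genes quoted for a rank or correlation were named after their values were seen. The fits were tested on simulated data, and 41 alternative settings were run.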

Additional observations from a re-analysis of the deposited data

Results flagged for a closer look

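Within groups of 4 to 6 libraries, 11 of 216 checks found 1 library far from the others of its group, where chance gives 10.8 at 1 in 20. *Ccna2* was 1.94 FPKM in Het-M-0100 (others 0.760 to 1.17), and *Nusap1* was 0.899 FPKM in the same library (others 0.222 to 0.449). In Homo-F-0201 *Nusap1* was 0.928 FPKM (others 0.212 to 0.369) and the sum over *Mcm2* to *Mcm7* 58.6 FPKM (others 55.5 to 56.4). *Ccne1* was 0.662 FPKM in Het-M-0203 (others 0.0543 to 0.279) and 0.970 FPKM in Homo-F-0228 (others 0.107 to 0.351). *Cdc6* was 0.400 FPKM in WT-F-0207 (others 0.0294 to 0.0751), *Cenpa* 3.997 FPKM in WT-F-0200 (others 2.28 to 2.56), and *Prc1* 1.59 FPKM in WT-M-0176 (others 0.679 to 0.864). Of the further pathway genes, *Cdkn1a* was low in Homo-F-0193 at 8.95 FPKM (others 11.4 to 11.97), and *Phlda3* was 3.0 FPKM in Het-F-0206 (others 0.315 to 0.866), the library whose *Bin1* was at Homo level.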

How the results depend on the processing

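No member tested reached an adjusted p below 0.05 in a genotype comparison under the alternatives fitted for it, 20 to 31 of the 41 for each, since a library was left out only where its group was compared. The smallest limma adjusted p came close, 0.0528 in male Homo against WT beside 0.101 in the main fit. In Homo averaged over the sexes it was 0.069 beside 0.126. With a mean FPKM of at least 1, 19 members were tested. At an unadjusted p below 0.05 the counts were 2 in male Homo, 1 in female Homo, 1 in male Het, 1 in female Het, 1 in male Homo against Het, 3 in Homo and 2 in Het averaged over the sexes, and 9 for the number range. The median of the 42 in male Homo was -0.18 with quantile normalization and 0.091 with late numbers alone. With late numbers alone the median sex difference was 0.005 in the Homo effect and 0.13 in the Het effect, and -0.017 in the Homo effect once the fit held the number range. The 4 calls for the number range became 2 with a pseudocount of 1, 1 without a filter, 2 without Het-F-0206 and Het-M-0199, and 0 to 5 when 1 library was left out. Calls over all genes went from 7.98% to 6.33%, 2.44% and 5.43% under the first 3, and ran from 0.00574% to 14.3% with 1 library left out. The causes were not tested. The paper describes the WT mice as littermates, but the labels give no litter. No analysis paired by litter was therefore possible, and litter could not enter the fits. Genes of few fragments limit what could be seen, as do groups of 4 to 6.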
